A study of Mus musculus with 3 samples.

Results

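The genes described here encode sensors, an adaptor and caspases of the cytosolic Nod-like receptor and inflammasome pathways in mouse bone marrow-derived dendritic cells (BMDCs). They were chosen by name, as the 8 genes Nod1, Nod2, Ripk2, Nlrp3, Aim2, Pycard, Casp1 and Casp4, and a gene was measured through probe sets that the platform annotation gives to it alone. Such probe sets were listed for 6 of the 8 genes, of 18193 genes so listed in all. Expression of Nod2 and Ripk2 was not analysed here. All 6 genes lay above the floor, the scaled signal of 32.5 below which signals were not ordered, on all 3 arrays.

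Mouse bone marrow was cultured with 10 ng/ml GM-CSF over 10 days, and the cells were left unstimulated (BMDC(-)), or received 10 ng/ml lipopolysaccharide (LPS) from Escherichia coli for 3 h (BMDC(+LPS)), or LPS together with 100 µM 8-Br-cAMP, a cell-permeable analogue of cyclic AMP, for 3 h (BMDC(+LPS+cAMP)). The labels name no strain, genotype, age or number of animals, and no matched incubation time for the unstimulated cells. Each condition had 1 Affymetrix mouse expression array of 45101 probe sets, so no difference has a replicate check and no test was made. No array had 8-Br-cAMP alone. The LPS array enters both the comparison with unstimulated cells and the comparison with LPS+8-Br-cAMP.

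Nod-like receptors are cytosolic proteins that sense microbial products or cell damage. Nod1 and Nod2 bind fragments of bacterial peptidoglycan and pass the signal through the kinase Ripk2 to NF-kB and MAP kinases. Nlrp3, and the DNA sensor Aim2, which is not a Nod-like receptor, assemble inflammasomes by recruiting the adaptor Pycard, also called ASC, which in turn gathers and activates the protease Casp1. Casp1 cleaves the precursors of interleukin-1 beta and interleukin-18 and the pore-forming protein Gsdmd. Casp4, called caspase-11 in older work on mice, binds LPS in the cytosol itself and cleaves Gsdmd without Casp1. In myeloid cells transcripts of several of these genes are known to rise when LPS is sensed at the surface by Tlr4, a step called priming.

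Some differences between the arrays touch all values. The array of LPS+8-Br-cAMP was dim as deposited, with a trimmed mean 0.571 times as high as with LPS, and all were scaled to a common trimmed mean before comparison. The LPS+8-Br-cAMP array had an Xist signal of 1716, where both others lay under the floor, and its Y-linked Eif2s3y lay under the floor, at 272 with LPS and 352 unstimulated. In these sex-linked transcripts the LPS+8-Br-cAMP culture read as female and both others as male, so the 3 cultures did not read as 1 pool of marrow split 3 ways. Of 13 neutrophil markers with a probe set, 13 were lower with LPS+8-Br-cAMP than with LPS, from -3.19 (Olfm4) to -0.069 (Mmp8) in log2. At least 2-fold lower were 8 of the 13, where 5.81% of 12572 measured genes were. The summed signal of the 13 was 24014 with LPS+8-Br-cAMP, against 45535 with LPS and 43420 unstimulated, with none at the floor. Summed B and plasma cell markers were 267, 3067 and 5015 in the same order, with Cd79a, Ms4a1, Jchain and Blk at the floor with LPS+8-Br-cAMP. Blk was at the floor with LPS too. For the analogue against LPS, 3 of 7 measured markers were at least 2-fold lower, Ighm (-4.83), Jchain (-4.02) and Igha (-3.95) in log2, beside 5.81% of all measured genes. Cd79b (0.10) and Pax5 (0.67, from the floor) were higher. Summed eosinophil and mast cell markers were 634, 1744 and 1762 from LPS+8-Br-cAMP to unstimulated. Of 7 measured, 4 were at least 2-fold lower with the analogue than with LPS, beside the same 5.81% of all measured genes. Siglecf (0.064) and Fcer1a (0.10) were slightly higher. The dendritic cell markers were above the floor on all 3 arrays, 13 of 13, and their summed signal was 50515 with LPS+8-Br-cAMP, 37604 with LPS and 31172 unstimulated. That order rests on the scaling. Without the scaling factors LPS+8-Br-cAMP had the lowest sum. With the analogue 10 of the 13 were higher than with LPS, 2 of them, Ccr7 and Dcstamp, by at least 2-fold, beside 6.49% of all measured genes. Of the 10, only Ccr7 and Dcstamp were larger in size than -0.81, the log2 shift between deposited and scaled signals for the analogue against LPS. Lower with the analogue than with LPS were Itgax at -0.21, Zbtb46 at -0.35 and Ciita at -0.19 in log2, by the probe sets used. Itgax read 1518 unstimulated, 1347 with LPS and 1165 with LPS plus 8-Br-cAMP. Flt3 was close to the floor, at 60.0, 36.8 and 49.6 in the same order. Summed macrophage markers were 36746, 28640 and 20502 from LPS+8-Br-cAMP to unstimulated, but without the scaling factors LPS+8-Br-cAMP was the lowest here too. With LPS 4 of 10 were at least 2-fold higher than unstimulated, beside 6.64% of all measured genes. For the analogue against LPS, Mertk stood at -1.65 and Mrc1 at 1.01 in log2. Of the 6 macrophage markers higher with the analogue, only Mrc1 and Cd14 (0.92) were larger in size than the shift of -0.81. The part of these differences in the results below was not tested, and with 1 culture per condition they and the treatment cannot be told apart.

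With LPS, 5 of the 6 genes exceeded their unstimulated signal by 2-fold or more and 0 were lower by as much. A gene counted as measured in a comparison when at least 1 of its arrays read above the floor, and of 12283 such genes 6.64% were higher and 13.0% lower by 2-fold or more. With LPS+8-Br-cAMP, 2 of the 6, Nod1 and Aim2, were at least 2-fold lower than with LPS alone and 0 were higher by as much, where 5.81% and 6.49% of 12572 measured genes were. Against unstimulated cells, 2 of the 6, Casp4 and Nlrp3, stood 2-fold or more higher with LPS+8-Br-cAMP and 0 were lower by as much, where 9.36% and 15.8% of 12793 measured genes were. The 6 genes had a median log2 difference of 1.63 for LPS against unstimulated, beside -0.21 for all measured genes. Their median was -0.62 from LPS to LPS+8-Br-cAMP, beside 0.049, and 0.43 from unstimulated cells to LPS+8-Br-cAMP, beside -0.12. In whole cultures like these, fewer cells of a type and less RNA per cell cannot be told apart.

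**Figure D1:**
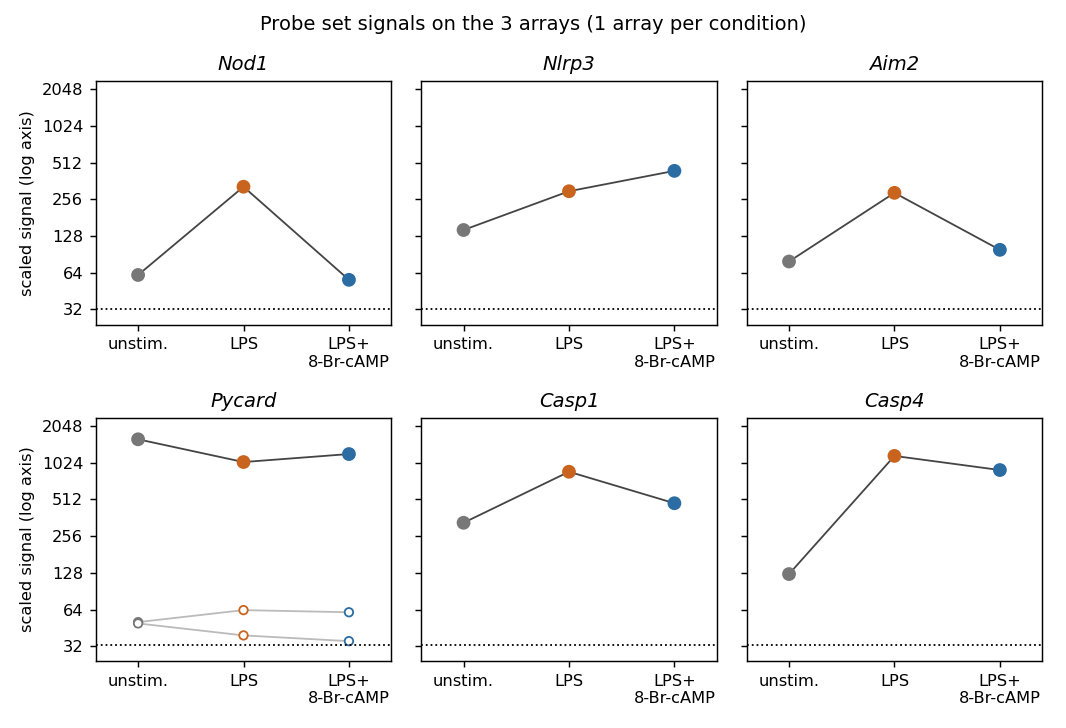
Scaled probe set signal (log axis) of each of the 6 genes on the 3 arrays, 1 per condition; filled points show the probe set used for the gene, open points the other 2 probe sets of Pycard, the dotted line the floor of 32.5, and lines only join points of 1 probe set. Nod1 and Aim2 are high on the LPS array alone, Casp4 is high on both arrays with LPS, and Nlrp3 has its highest scaled signal with LPS+8-Br-cAMP.

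Nod1, the sensor of peptidoglycan fragments that carry diaminopimelic acid, had a scaled signal (probe set 1454733_at) of 61.4 unstimulated, 326 with LPS and 56.1 with LPS plus 8-Br-cAMP. It was thus high on the LPS array and low, not far above the floor, on both others. With LPS it was 5.30-fold higher than in unstimulated cells, a log2 difference of 2.41. With the analogue added it was 5.81-fold lower than with LPS alone, a log2 difference of -2.54. Only 17 of 12572 measured genes had a lower difference in that comparison, and 191 of 12283 had a higher one with LPS against unstimulated. The scatter of these arrays was described by the disagreement between the 2 brightest probe sets of the same gene, which gave an error of 1 probe set of 0.45 in log2 for LPS against unstimulated, 0.48 for LPS+8-Br-cAMP against LPS and 0.56 for LPS+8-Br-cAMP against unstimulated. It does not hold the spread between cultures. The differences of Nod1 were 5.38 and 5.31 times that error. Between LPS+8-Br-cAMP and unstimulated cells Nod1 differed by -0.13, less than the error, and its sign turned under quantile normalization (0.053) and cyclic loess (0.18). As deposited it was -0.92, beyond the error.

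Aim2, which binds double-stranded DNA in the cytosol, was also highest on the LPS array, with smaller differences than Nod1. Its scaled signal (1426619_at) was 79.3 unstimulated, 290 with LPS and 98.8 with LPS plus 8-Br-cAMP. The LPS array stood above both others, by 3.66-fold over unstimulated cells (log2 1.87) and by 2.94-fold over LPS+8-Br-cAMP (log2 difference of -1.55 for the analogue against LPS). Of the measured genes, 310 had a higher difference with LPS and 168 a lower one with the analogue. Both Aim2 differences were over 3 times the error of 1 probe set, at 4.19 and 3.25 times. LPS+8-Br-cAMP and unstimulated cells differed by 0.32, less than the error, and by -0.77 in the signals as deposited.

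Nlrp3, the inflammasome sensor that responds to potassium efflux and other signs of damage, was not highest on the LPS array. Its scaled signal (1425412_at) was 144 unstimulated, 299 with LPS and 439 when the analogue was added. It was lowest without stimulation and highest with the analogue. The difference with LPS was 2.08-fold (log2 1.06), just past the 2-fold limit, and ranged from 0.72 to 1.24 over the other scalings. With the analogue it was a further 0.56 higher than with LPS in log2, 1.16 times the error of 1 probe set and short of 2-fold, but -0.25 in the signals as deposited, which keep that array's dimness. Against unstimulated cells the 2 steps added to 3.06-fold (log2 1.61), but to 0.52 in log2 as deposited, short of 2-fold.

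Pycard, the adaptor that links both Nlrp3 and Aim2 to Casp1, was the only one of the 6 genes that was not higher with LPS by the probe set used. That probe set (1417346_at) read 1597 unstimulated, 1039 with LPS and 1208 with LPS plus 8-Br-cAMP, log2 differences of -0.62 for LPS against unstimulated and 0.22 for the analogue against LPS. Neither passed 2-fold, and the second was under the error of 1 probe set and turned to -0.59 in the signals as deposited. The other probe sets of Pycard were dim and disagreed in sign with LPS. Probe set 1417347_at read 50.4, 63.3 and 60.8 in the same order, a difference of 0.33 with LPS. Probe set 1446926_at read 49.2, 39.2 and 35.2, a difference of -0.33.

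Casp1, the protease of the canonical inflammasome, had a scaled signal (1449265_at) of 330 unstimulated, 865 with LPS and 477 with LPS plus 8-Br-cAMP. The LPS array was the highest and the unstimulated array the lowest. With LPS it was 2.62-fold higher (log2 1.39). With the analogue it lay between the other arrays, at a log2 difference of -0.86 from LPS, 1.80 times the error and short of 2-fold (-1.67 as deposited, past 2-fold). It was 0.53 above unstimulated cells, less than the error, and as deposited the difference was -0.56.

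Casp4, the cytosolic LPS receptor and protease of the non-canonical inflammasome, had the largest difference of the 6 genes with LPS. Its scaled signal (1449591_at) was 125 unstimulated, 1166 with LPS and 893 with LPS plus 8-Br-cAMP. Both arrays with LPS stood far above the unstimulated one. The difference with LPS was 9.32-fold (log2 3.22), 7.21 times the error of 1 probe set, and 100 of 12283 measured genes had a higher one. With the analogue Casp4 differed from LPS by -0.38, less than the error, but by -1.19 as deposited. It remained 7.14-fold above unstimulated cells (log2 2.84; 1.74 as deposited), with 157 of 12793 genes higher.

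For the 5 genes higher with LPS, the share of that gain present when 8-Br-cAMP was given too was computed. The gain was taken as the scaled signal with LPS minus that of unstimulated cells, and the part present as the signal with LPS+8-Br-cAMP minus that of unstimulated cells. The part present was -2.04% of the gain for Nod1, 9.28% for Aim2, 27.5% for Casp1, 73.8% for Casp4 and 190% for Nlrp3. Over median, spike, quantile and cyclic loess scaling the shares ranged from -6.42% to 2.59% for Nod1, from 4.52% to 17.0% for Aim2, 24.1% to 30.5% for Casp1, 70.8% to 81.6% for Casp4 and 177% to 256% for Nlrp3. In the signals as deposited these shares were -17.1%, -20.7%, -27.9%, 35.2% and 61.1%, so that Casp1 and Aim2 lay below Nod1 there, while Casp4 and Nlrp3 still had the highest shares. These ranges hold the choice of scaling, which moves the genes of an array much alike, and not the error of a probe set. Nod1, Aim2 and Casp1 lay within that error of unstimulated cells with the analogue, so the order among these 3 was not resolved. The LPS array sets both the gain and the comparison with the analogue, so a high or low reading of a gene on that array alone would move both.

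**Figure D2:**
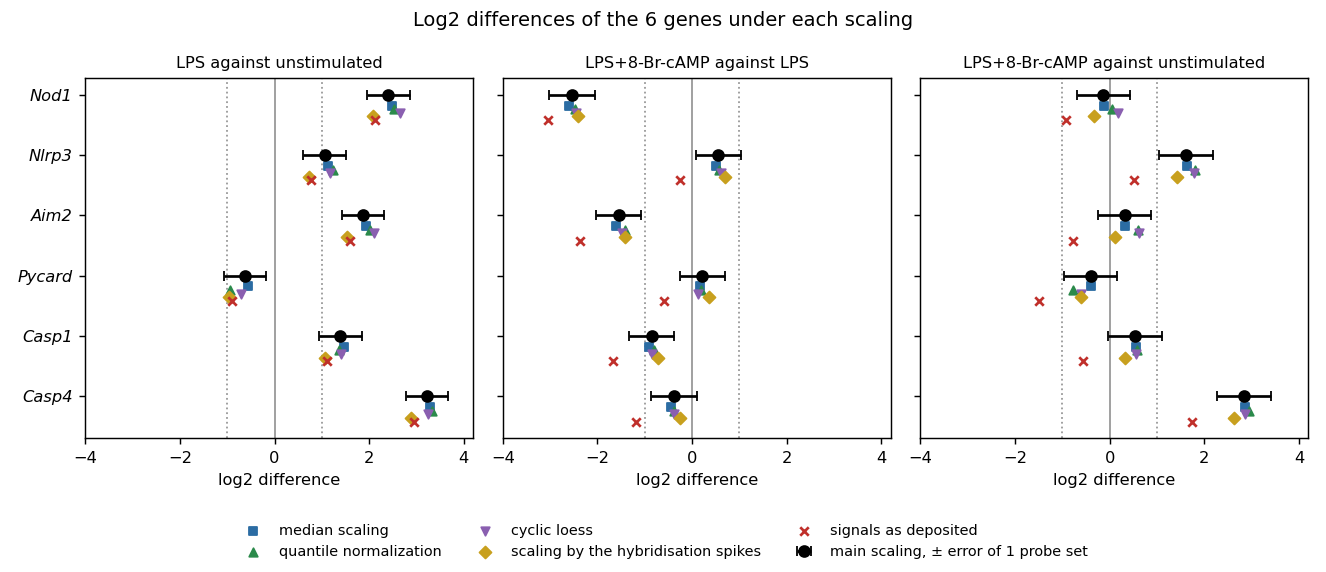
Log2 differences (x axis) of the 6 genes in the 3 comparisons; black points show the main scaling with a bar of 1 error of a probe set (0.45, 0.48 and 0.56 from left to right), coloured marks the other scalings, and dotted lines 2-fold. Nod1 and Aim2 pass 2-fold in opposite directions in the first and second comparison under all scalings shown, and the signals as deposited shift the genes in the second comparison by -0.81, Nod1 less because it meets the floor there.

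Promoter sequence was taken from RefSeq's GRCm38.p6 annotation, which gave a start for 7 of the 8 genes, with 10 windows in all because some genes have several starts. Each window ran from 250 bases before the start to 50 after it and was searched on both strands for 6 motifs. For NF-kB these were GGGANTTCC and the same letters with a second N, for interferon response GAAA and GAAA with any pair of bases between, for GAS, the site of activated STAT dimers, TTCNNNGAA, and for the cAMP response element TGACGTCA and its core TGACG, which lies within it. Casp4 had 2 matches of GGGANTTCC, starting 92 and 39 bases before its first listed start, the second on the opposite strand. Of 32544 promoter windows 1.69% held at least 1 such match and 0.0768% at least 2. Casp4 also held TGACG at 143 bases before the start, as did 20.9% of windows. The second listed start of Nod1 had a match of TTCNNNGAA at 193 bases before it, found in 8.33% of windows, and its first had none of the 6. No window of Nod2, Aim2, Pycard or Casp1 held any of the 6, and Nlrp3 held only TGACG, after its first listed start. A match describes the letters and is no evidence of binding, and a missing one says only that these letters are not in the window. The 250 bases before the first listed start are shown for Casp4, the gene with the largest LPS difference, and for Nod1 and Aim2, which were low with the analogue, with the GGGANTTCC matches in capitals. They lie at chr9:5308599-5308848 on the plus strand for Casp4, at chr6:54972613-54972862 on the minus strand for Nod1 and at chr1:173420354-173420603 on the plus strand for Aim2, each 5′ to 3′.
Casp4: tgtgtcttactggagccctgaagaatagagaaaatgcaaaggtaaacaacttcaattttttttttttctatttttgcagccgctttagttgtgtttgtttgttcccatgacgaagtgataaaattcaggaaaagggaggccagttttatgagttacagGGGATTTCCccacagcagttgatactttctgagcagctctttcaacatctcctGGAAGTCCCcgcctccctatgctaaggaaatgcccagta
Nod1: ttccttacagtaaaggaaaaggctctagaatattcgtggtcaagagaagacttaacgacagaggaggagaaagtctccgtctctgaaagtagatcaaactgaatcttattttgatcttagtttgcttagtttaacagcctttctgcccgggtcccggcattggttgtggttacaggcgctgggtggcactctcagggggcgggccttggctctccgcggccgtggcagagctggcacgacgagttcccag
Aim2: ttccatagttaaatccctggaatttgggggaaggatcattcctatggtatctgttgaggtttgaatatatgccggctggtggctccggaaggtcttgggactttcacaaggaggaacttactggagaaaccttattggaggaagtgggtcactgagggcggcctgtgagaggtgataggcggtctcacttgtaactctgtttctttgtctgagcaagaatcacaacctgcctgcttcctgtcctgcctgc

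The genes nearest to each member that passed 2-fold in 1 of the first 2 comparisons, which leaves out Pycard, were taken by the Euclidean distance over the log2 differences of LPS against unstimulated and of LPS+8-Br-cAMP against LPS, among 8848 genes above the floor on all 3 arrays, so that likeness rests on 3 arrays. For Nod1 the nearest was the myeloid surface receptor Slamf8 at a distance of 0.18, followed by the RNA-binding protein gene Zc3h12c at 0.38 and tissue factor, F3, at 0.61. The neighbours of the other genes were closer. For Aim2 they were Rab32, Nfxl1 and Bcl9 (0.045 to 0.090), for Casp1 Ubtd2, Dram1 and Slc44a1 (0.023 to 0.073), for Nlrp3 Cd47, Ifitm3 and Rnf114 (0.056 to 0.082) and for Casp4 Slco3a1, Slfn9 and Dhx58 (0.10 to 0.12). All of these distances but that of F3 lie below the error of 1 probe set in either comparison (0.45 and 0.48). Which genes are nearest was therefore not resolved.

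Other genes of these pathways were taken as 3 lists, described by counts beside the shares of all genes given above. Of 25 other Nod-like receptors 20 had their own probe set, and 10 of these were measured for LPS against unstimulated. Of those, 1 was higher and 1 lower by 2-fold or more (list median -0.012). Nlrc5, a Nod-like receptor that activates MHC class I genes, read 124 unstimulated, 983 with LPS and 464 with LPS plus 8-Br-cAMP, differences of 2.99 and -1.08. As for Nod1, Aim2, Casp1 and Casp4, the LPS array gave the highest scaled signal. Nlrx1, a mitochondrial member, went the opposite way, at 101 unstimulated, under the floor with LPS (at least 3.09-fold lower) and at 79.7 with LPS+8-Br-cAMP (at least 2.45-fold higher than LPS). For LPS+8-Br-cAMP against LPS these were the only 2 of 12 measured receptors past 2-fold (median -0.16). The Naip genes encode sensors of bacterial flagellin and secretion systems and are related copies, so that their probe sets may share signal. Naip2 read 451, 429 and 516 in the order unstimulated, LPS and LPS+8-Br-cAMP, Naip6 183, 173 and 159, and Naip5 319, 184 and 117.

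Among inflammasome partners, substrates and effectors, 7 of 24 measured genes were higher and 2 lower by 2-fold or more with LPS (median 0.079). The 5 largest differences were those of the cytokine Il1a (at least 6.45, from the floor), the GTPase Gbp2 (3.64), the DNA sensor Ifi204 of Aim2's family (3.47), the interleukin-1 receptor antagonist Il1rn (3.42) and the Casp1 substrate Il1b (3.20). Il1b read 1151 unstimulated, 10573 with LPS and 16929 with LPS plus 8-Br-cAMP, so its scaled signal was highest with the analogue, as that of Nlrp3 was, while as deposited it read 11376 with LPS and 10394 with the analogue. The other substrates of Casp1 differed by less than 2-fold with LPS. Il18 read 209, 299 and 347 in the same order of arrays and Gsdmd 480, 542 and 511. As deposited, Il18 read 321 with LPS and 213 with the analogue. With the analogue against LPS, 1 of 23 measured genes of this list was at least 2-fold higher and 1 lower (median -0.035). The first was Il33, under the floor with LPS and at 125 with LPS+8-Br-cAMP, at least 3.85-fold higher. The second was P2rx7, the ATP-gated channel upstream of Nlrp3, at 352 unstimulated, 171 with LPS and 85.3 with the analogue by the probe set used, which is just past 2-fold, while its other probe sets differed by -0.10 and 0.68. Il1rn was 0.96 higher with the analogue, short of 2-fold, and 1.01 and 0.46 higher by its other probe sets. As deposited, Il1rn read 7285 with LPS and 8080 with the analogue by the probe set used. Its other probe sets read 2194 and 2520, and 6964 and 5458, so the last turned.

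Among signalling partners of Nod1 and Nod2, 4 of 28 measured genes were higher and 2 lower by 2-fold or more with LPS (median 0.26). The largest were Tnfaip3, a ubiquitin-editing inhibitor of NF-kB, at 3.74, the lysosomal transporter Slc46a3 at -2.31, Rnf31, the catalytic subunit of the linear ubiquitin ligase, at 2.25, the ubiquitin ligase Birc3 at 1.60 (0.72 by its second probe set) and the antiviral adaptor Mavs at -1.54. With the analogue against LPS, 1 of the 28 passed 2-fold (median -0.029). This was the peptide transporter Slc15a2, under the floor with LPS and at 99.8 with LPS+8-Br-cAMP, although its second probe set differed by -0.67. Tnfaip3 read 315 unstimulated, 4219 with LPS and 7194 with LPS plus 8-Br-cAMP, highest with the analogue by scaled signal, while as deposited it read 4540 with LPS and 4417 with the analogue. Of the 28 signalling partners 0 were at least 2-fold lower with the analogue, where 5.81% of 12572 measured genes were. A count of 0 among 28 is close to that share. Nod1 itself was 5.81-fold lower. That difference between Nod1 and the list was not tested. As deposited, Nlrx1 read 34.4 with LPS and 49.0 with the analogue, Il33 24.8 and 77.0, and Slc15a2 14.5 and 61.3, the same direction as after scaling.

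**Figure D3:**
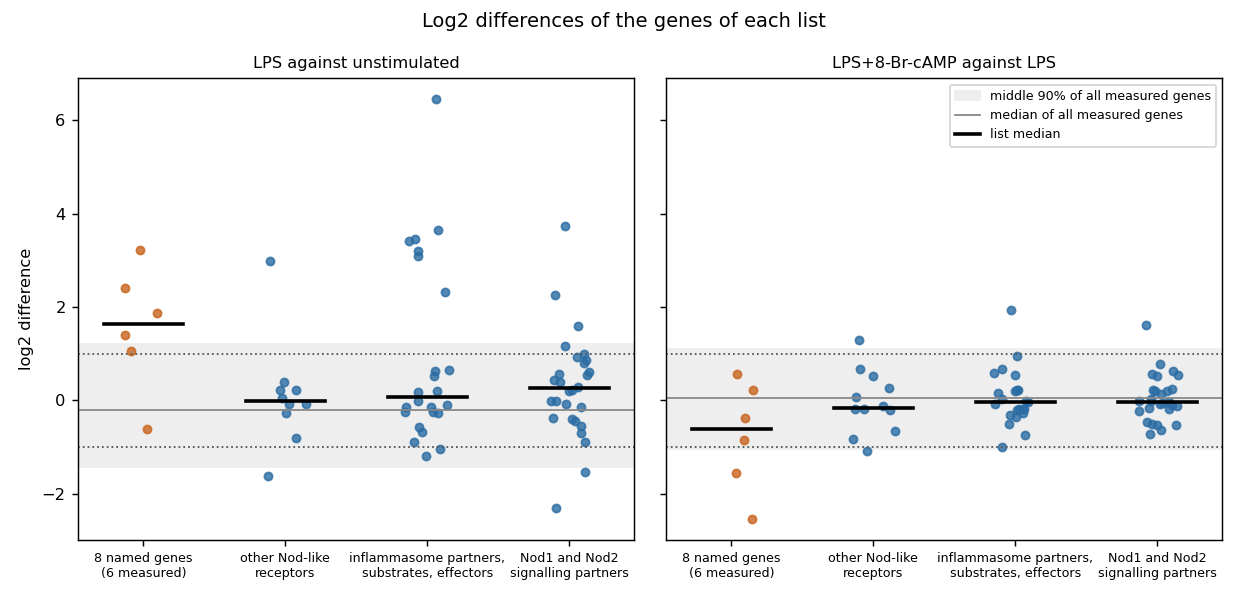
Log2 differences (y axis) of the measured genes of each list, 1 point a gene, for LPS against unstimulated and LPS+8-Br-cAMP against LPS; black bars show list medians, the grey line the median and the grey band the middle 90% of all measured genes, and dotted lines 2-fold. The 6 measured genes have a median of 1.63 on the left and -0.62 on the right, and the medians of the other 3 lists lie between -0.16 and 0.26.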

How the data were processed

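Total RNA from each culture was labelled as biotinylated cRNA and hybridised, per the labels' protocols. The deposited values were linear intensity signals per probe set, made by the authors with MAS5, per the submitters' processing notes, whose version and target value are unknown here. Columns were matched to conditions by sample. The 64 control probe sets were left out. GEO's platform annotation named 1 gene for 34945 of 45037 other probe sets. Detection calls were not used here, and the number of arrays limits the precision.

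Arrays were scaled to the average of their means trimmed by 2% at each end (factors of 0.763, 0.929 and 1.63 in the order unstimulated, LPS, LPS+8-Br-cAMP). Signals under the highest array median were raised to that floor of 32.5 before taking log2. The brightest probe set on average stood for a gene, and 2-fold was the threshold; a difference from the floor is a lower bound. Named from each pathway list were up to 5 genes with the largest differences past 2-fold in either of the first 2 comparisons; Il18, Gsdmd, the Naip genes and the marker genes shown were added after their values were seen. The error of 1 probe set was the SD of the difference between the 2 brightest probe sets of a gene divided by the square root of 2 (4029, 3799 and 3825 genes with both above the floor). The steps were tested on simulated data. Changes were planted only in genes well above the floor, with less noise than the error of 1 probe set and a shared baseline for all arrays. That simulation does not cover genes as dim unstimulated as Nod1 and Aim2, nor differences between cultures. The members and lists were chosen with earlier results of these data known. Alternatives were other scalings, floors, a pseudocount, other probe set choices and thresholds of 1.5-fold and 3-fold. Software was Python 3.11.15, pandas 2.3.3, R 4.3.3 and limma 3.58.1 (cyclic loess).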

Additional observations from a re-analysis of the deposited data

How the results depend on the processing

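Of 178 values of the 18 log2 differences under alternatives, 161 moved by less than the error of 1 probe set, and 6 had the opposite sign, 4 of these in the signals as deposited and 2 for Nod1 between LPS+8-Br-cAMP and unstimulated cells; no difference past 2-fold turned. As deposited, 4 genes were at least 2-fold lower with LPS+8-Br-cAMP than with LPS in place of 2, and against unstimulated cells 1 was higher in place of 2 (Casp4, without Nlrp3) and 1 lower in place of 0 (Pycard). These counts keep that array's dimness. As deposited, 2882 of 10302 measured genes were lower by as much with LPS+8-Br-cAMP than with LPS. Against unstimulated cells 6125 of 11426 were lower and 286 higher. At 3-fold, 3 genes were higher with LPS in place of 5 and 1 was lower with the analogue in place of 2, and at 1.5-fold 1 was lower with LPS in place of 0 and 3 with the analogue against LPS in place of 2. The shares of all measured genes past 1.5-fold and 3-fold were not computed. Nlrp3 fell short of 2-fold with LPS under spike scaling (0.72), as deposited (0.77) and with a pseudocount (0.91). A floor at the 75th percentile brought Nod1 to 1.58 with LPS and -1.58 with the analogue, and Aim2 to 1.41 and -1.41, since the low signals of both lie under it. With that floor neither was measured between LPS+8-Br-cAMP and unstimulated cells. The median of all measured genes ranged from -0.51 to -0.097 for LPS against unstimulated and from 0.0023 to 0.16 for LPS+8-Br-cAMP against LPS over median, spike, quantile and cyclic loess scaling (-0.47 and -0.65 as deposited). Higher genes made up 33.8% of those past 2-fold with LPS (15.7% to 45.7% over those scalings, 17.5% as deposited) and 52.8% with the analogue (46.8% to 66.4%, 3.13% as deposited). No paired analysis was possible because each condition had 1 array, and none could be left out. Nod1, Aim2, Nlrp3, Casp1 and Casp4 each rest on 1 probe set.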
